A study of Mus musculus with 8 samples.

Results

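The genes described here are 39 genes of complement and blood coagulation that are known as products of the liver and were taken from a list of names. They fall into 15 genes of the complement cascade, 14 of coagulation and fibrinolysis, and 10 inhibitors of either system. All 39 were found by symbol in every RNA-seq and Ribo-seq library, among 24539 listed genes for RNA-seq and 25033 for Ribo-seq. The libraries came from livers of C57BL/6 mice. Both groups received a high-fat diet in which 45% of the energy was fat, starting at week 8, and their livers were taken at postnatal week 25. The labels also give 25 weeks on the diet, which cannot hold with both of these weeks. The HF group had the diet alone, and the HB group also had betaine, a methyl donor, in its water at 2% (w/v). Each group had 6 mice, and each assay had 2 libraries per group, called HF1, HF2, HB1 and HB2. The labels describe RNA pooled from several preparations, whereas the study's methods state that 2 mice of each group were chosen for sequencing. Since these accounts differ, the libraries are not counted as mice, and p-values here measure the spread between libraries, which may be technical or between animals. The question put to these genes was whether betaine on a high-fat diet changed their mRNA, their translated mRNA, or the ratio of both. Mice on a standard diet were not analysed here.

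Complement is a chain of plasma proteases and binding proteins that marks microbes and debris, attracts leukocytes and can open pores in membranes. It is started by antibody bound to the C1 complex, by mannose-binding lectins that recognise sugars, or by the alternative route through factor B, and all of these meet at C3. Coagulation is a second protease chain that ends in thrombin, which turns fibrinogen into fibrin, and plasmin later dissolves the clot. Hepatocytes secrete most of the proteins of both chains into the blood, together with serpins and cofactors that hold them in check, and several of them are acute-phase proteins that rise in inflammation.

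RNA-seq counts polyadenylated mRNA, and Ribo-seq counts ribosome-protected fragments (RPFs), which survive RNase digestion because a translating ribosome covers them. Levels are in RPKM, reads scaled to the length of the gene and the total of the library, and translation efficiency (TE) is the RPF level divided by the mRNA level. The RNA-seq libraries held 11661207 (HF1), 11824128 (HF2), 22543472 (HB1) and 18082686 (HB2) reads. The Ribo-seq libraries were far smaller, with 387980, 1056546, 257086 and 141890 reads in the same order. The 39 genes took 2.35% to 3.05% of the reads in RNA-seq and 2.86% to 3.36% in Ribo-seq. A member had a median of 3672 to 9643 mRNA reads in a library, but a median of 136 and 290 RPF reads in HF1 and HF2 and 89 and 52 in HB1 and HB2, so RPF reads of HB carry the widest counting error. Alb, the serum albumin gene that marks hepatocytes, had an mRNA level between 21470.2 and 31909.7 RPKM in the 4 libraries, and 11 of 12 listed hepatocyte markers were tested.

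The 3 fibrinogen genes lie side by side on mouse chromosome 3 and had more mRNA in both HB libraries than in either HF library, so the DNA ahead of their starts is shown with that of Mbl2, the member with the smallest p for mRNA. The sequences are from RefSeq on GRCm38.p6, the build of the reads, run 5′ to 3′ on the strand of the gene and stop before the first annotated transcribed base. Fga is on the plus strand (chr3:83025903-83026075), Fgb on the minus strand (chr3:83049864-83050063), Fgg on the plus strand (chr3:83007524-83007723) and Mbl2 on the plus strand (chr19:30232728-30232927). Capitals mark matches, on either strand, to 4 motifs of factors known from liver and acute-phase promoters. These are GTTAAT (a core of HNF1 sites), TTGCNNAA (C/EBP), TTCNNNGAA (STAT) and CTGGGAA (the interleukin 6 response element), of which the last can overlap the STAT motif.
Fga: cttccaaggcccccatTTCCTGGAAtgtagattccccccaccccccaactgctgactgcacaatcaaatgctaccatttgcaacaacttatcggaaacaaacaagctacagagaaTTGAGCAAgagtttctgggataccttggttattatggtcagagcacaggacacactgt
Fgb: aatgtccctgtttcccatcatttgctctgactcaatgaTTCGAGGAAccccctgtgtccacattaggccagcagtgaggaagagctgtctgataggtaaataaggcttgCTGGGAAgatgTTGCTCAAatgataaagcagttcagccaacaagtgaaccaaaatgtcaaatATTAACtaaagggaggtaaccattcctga
Fgg: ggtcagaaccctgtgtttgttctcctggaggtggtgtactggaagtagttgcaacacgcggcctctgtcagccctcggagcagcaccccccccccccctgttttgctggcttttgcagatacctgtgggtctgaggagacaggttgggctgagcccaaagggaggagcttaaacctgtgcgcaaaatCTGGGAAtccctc
Mbl2: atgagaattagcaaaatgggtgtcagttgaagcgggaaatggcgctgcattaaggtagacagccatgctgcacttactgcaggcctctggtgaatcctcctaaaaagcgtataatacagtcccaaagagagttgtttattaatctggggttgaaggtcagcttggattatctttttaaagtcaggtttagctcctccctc
The Fga window shows a STAT and a C/EBP match, the Fgb window all 4 motifs, the Fgg window the interleukin 6 response motif alone, and the Mbl2 window none. RefSeq gave such a promoter for 29 of the 39 members, and the entries for Cfi, Cfb, Kng1, Serping1, Proc, C2, C4b, Plg, Clu and Masp1 are missing. In the 250 bases before the start, 9 of these 29 members held the HNF1 core (31.0%), against 6.43% of 32851 promoters of all genes. They were C1ra, C4bp, C8a, C8b, Cfp, F13b, Fga, Fgb and Vtn, and the Fga match lies closer to the RefSeq start than the printed stretch. The C/EBP motif was in 7 members (C3, C9, F9, F11, Fga, Fgb and Klkb1; 24.1%) against 9.56% of all promoters. The STAT motif was in 6 members (20.7% against 7.02%) and the interleukin 6 response motif in 5 (17.2% against 9.10%). Members were counted as genes with a match in any entry, and the background as promoter entries, so the shares differ in unit. These matches describe letters in the sequence and are not binding sites.

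In HF livers the members were among the more abundant mRNAs. The median member stood at the 94.8th percentile of the 10687 genes tested for mRNA and at the 95.7th of the 11190 tested for RPF. The highest mRNA levels belonged to Kng1, the kininogen that carries bradykinin, to Vtn, vitronectin, which binds the terminal complement complex, and to Fgb, the beta chain of fibrinogen. Kng1 had 1164 and 1351 RPKM in HF1 and HF2, Vtn 944 and 1251, and Fgb 1009.8 and 984. The HF libraries of Vtn overlapped those of Kng1 and Fgb, so its place was within the spread, whereas both of Kng1 were above both of Fgb. The lowest were F13b, the carrier subunit of the clot-linking factor XIII (16 ± 0.689 RPKM, mean ± SD, n = 2), Pros1, protein S, the cofactor of protein C (13.7 ± 2.20), and Masp1, a protease that rides on mannose-binding lectin (3.28 ± 0.581). By list, the median HF mRNA level was 109 RPKM for complement, 206 for coagulation and 209 for the inhibitors. The lists spanned wide and overlapping ranges, from 3.28 to 614 RPKM in complement, from 16 to 1258 in coagulation and from 13.7 to 1098 among the inhibitors.

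The highest RPF levels in HF were those of C3, the protein on which all complement routes meet (1819 RPKM in HF1 and 1136 in HF2), of Kng1 (950.1 and 1860.4) and of Fgb (1067 and 1058). Both HF libraries of C3 were above those of Fgb, whereas Kng1 differed strongly between HF1 and HF2 and its place was within the spread. The lowest were C2, the protease of the classical C3 convertase (24.5 RPKM, HF mean), F11 (15.2), a protease of the contact route, and Cfp, properdin, which stabilises the alternative convertase (9.77). Cfp rested on 8, 12, 3 and 0 RPF reads in HF1, HF2, HB1 and HB2. Median HF RPF levels were 132 RPKM in complement, 167 in coagulation and 231 among the inhibitors.

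**Figure D1:**
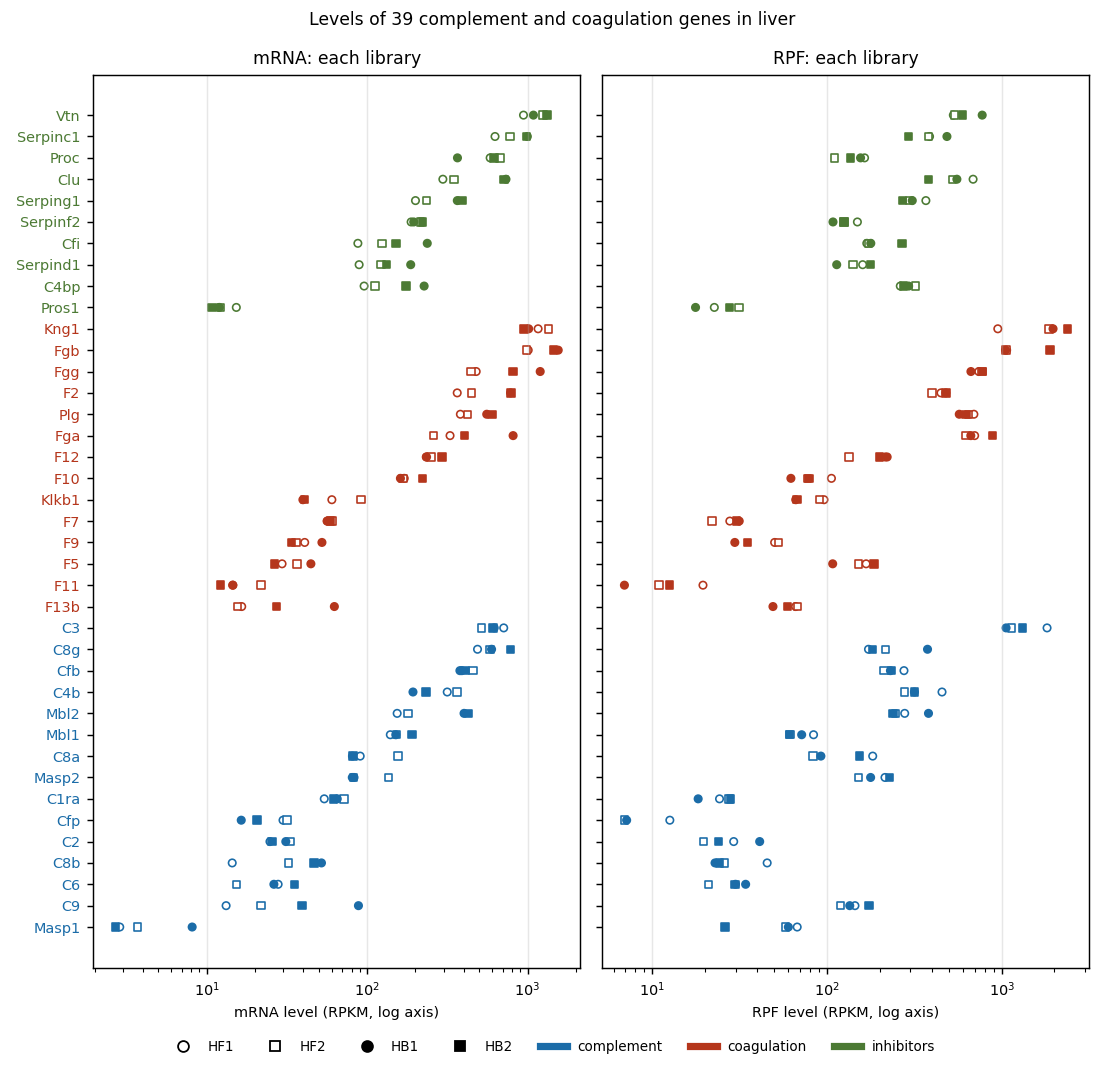
mRNA level (left) and RPF level (right) of the 39 members in RPKM on log axes, one symbol per library, open for HF and filled for HB, with genes ordered by HF mRNA within each list. The mRNA means of HF reach from 3.28 RPKM (Masp1) to 1258 (Kng1), and a level of 0 (Cfp RPF in HB2) is not drawn.

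TE in HF differed widely between members. Among members with at least 30 RPF reads in each HF library, the highest TE was that of Masp1 (23.6 in HF1 and 15.7 in HF2), which had the lowest mRNA level of all. C9, the subunit that polymerises into the pore of the membrane attack complex, followed with 11 and 5.50, and F5, the cofactor of factor X, with 5.68 and 4.14. The lowest belonged to Proc, the anticoagulant protease protein C (0.281 and 0.165), to C8g, the lipocalin chain of C8 (0.354 and 0.370), and to Vtn (0.560 and 0.430). Median HF TE was 1.22 in complement, 1.20 in coagulation and 1.52 among the inhibitors. By library it was 1.44 and 0.768, 1.29 and 1.23, and 1.64 and 1.21 in the same order, so the lists changed places between HF1 and HF2, and their ranges overlapped. The gene length behind the mRNA values, recovered from the RPKM, was within 10% of the longest annotated transcript for 29 of 39 members. The length behind the RPF values exceeded the longest coding sequence for 37 of 39, all but Kng1 and Masp2, so for those 37 it included untranslated bases. For 31 members both assays used the same length, and for 8 they did not. The gap was wide for Masp2, the protease that cleaves C4 and C2, whose mRNA values were divided by 3059 bases and whose RPF values by 744. Its HF TE was 1.86 as deposited and 0.451 with the RNA-seq length in both assays, which moved it from rank 11 to rank 35 of 39. C9 went from 8.23 to 9.79 and C8g from 0.362 to 0.459 in the same way, and Masp1 and C9 stayed the first and second. Such a length nearly cancels in the comparison of HB with HF.

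**Figure D2:**
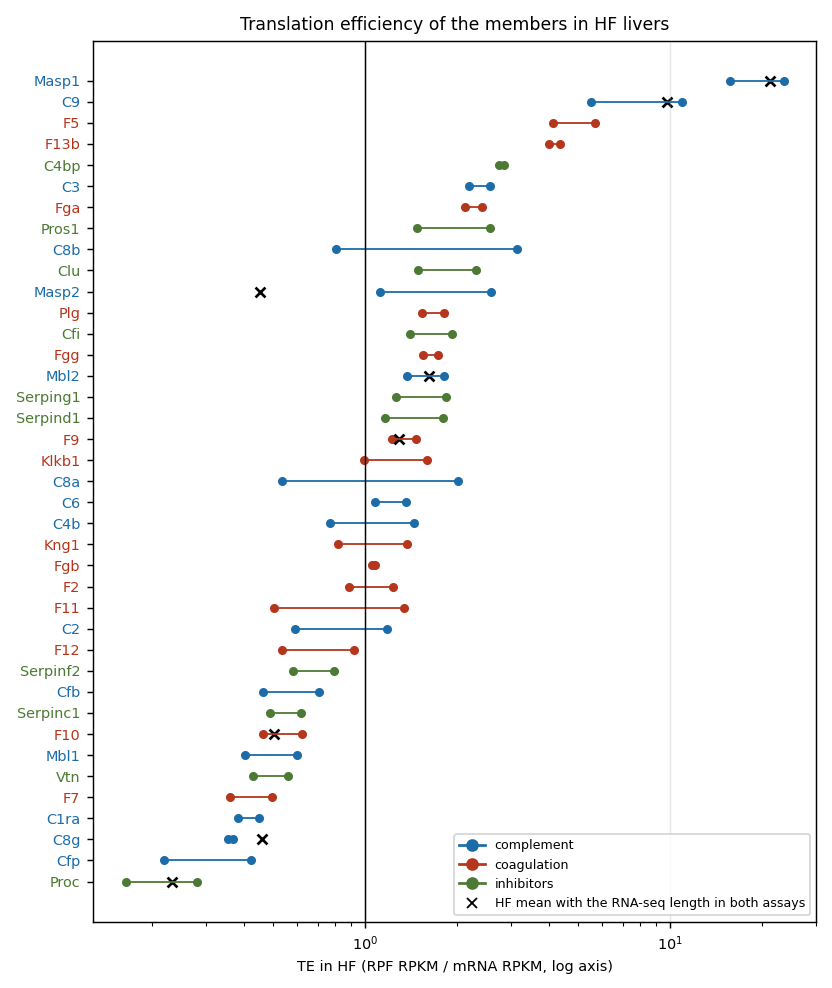
TE (RPF RPKM over mRNA RPKM, log axis) of each member in HF1 and HF2, joined by a line, with crosses for the HF mean of the 8 members whose assays used different lengths, recomputed with the RNA-seq length. Masp1 and C9 lie highest and Proc lowest, and the Masp2 cross lies well to the left of its deposited values.

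In mRNA, 9 members rose and 1 fell in HB by adjusted p, together 10 of 39 against 27% of all tested genes. The study's limits for mRNA, a log2 fold change past 1 and an unadjusted p under 0.001, were applied to p-values from limma, fitted across all genes. By this rule 1 of 39 members was higher in HB against 2.3% of all tested genes, and 0 were lower against 6.56%. With an adjusted p under 0.05 and the same fold, 6 members were higher (Mbl2, C9, Clu, F13b, Fgg and C8b) against 5.01% of all tested genes, and 0 were lower against 12.7%. Without the fold limit, 9 members were higher at an adjusted p under 0.05 (those 6 with F2, C4bp and Serping1), against 7.92% of all tested genes, and 1 was lower (Klkb1), against 19.1%. The median log2 fold change of the members was 0.16, against -0.19 over all tested genes, and 27 members lay above 0 and 12 below. Both HB libraries were above both HF libraries for 16 members, against 24.8% of all tested genes, and below them for 8, against 43.3%. The inhibitors had the highest median (0.54, with 8 of 10 above 0), coagulation stood at 0.15 (10 of 14) and complement at 0.025 (9 of 15). The inhibitor and coagulation medians stayed above 0 under each rescaling of the libraries, whereas the complement median became -0.018 when RPKM were scaled to a common sum and -0.028 for a common protein-coding sum. Leaving out 1 library gave medians of -0.014 (without HB1) to 0.18 (without HF2) in complement, 0.19 (without HF2) to 0.43 (without HB2) in coagulation, where it was 0.33 without HB1, and 0.35 (without HF1) to 0.73 (without HF2) among the inhibitors. The lists were not tested against each other.

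Among the complement genes, 1 recognition protein (Mbl2) and 2 chains of the membrane pore (C9 and C8b) rose in mRNA. Mbl2, a mannose-binding lectin, had 154 and 179 RPKM in HF and 402 and 428 in HB. The groups did not overlap and lay far apart, at a log2 fold change of 1.31 (SE 0.26, adjusted p = 0.00915). It was the 1 member past the study's threshold. It was also past it without HB1 or without HB2, but not without HF1 (adjusted p = 0.0715), without HF2 (adjusted p = 0.0205) or with no filter on low genes (adjusted p = 0.0545). Its paralog Mbl1 had 139 and 152 RPKM in HF and 151 and 191 in HB, with overlapping groups and a log2 fold change of 0.22 (SE 0.26, adjusted p = 0.567). C9 had 13.2 and 21.8 RPKM in HF and 88.3 and 39.4 in HB, and both HB libraries were above HF although HB1 was far above HB2. Its log2 fold change was 1.74 (SE 0.39, adjusted p = 0.0124), the largest of the 39, and it was 1.17 without HB1. C8b, the beta chain of C8, had 14.4 and 32.3 RPKM in HF and 51.9 and 46.7 in HB, at 1.15 (SE 0.35, adjusted p = 0.0374). HF1 was well below HF2 for this gene, and without HF1 the fold change was 0.59 (adjusted p = 0.415).

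The other complement genes did not pass the adjusted threshold. C3 had 710.5 and 517 RPKM in HF and 619.7 and 608 in HB, and its log2 fold change was 0.018 with a 95% interval of -0.63 to 0.67. Cfb, the protease of the alternative convertase, stood at -0.10, C2 at -0.028, and C1ra, a protease of the C1 complex, at 0.025, all with overlapping libraries. C6, which builds the membrane attack complex on C5b, stood at 0.53 with overlapping libraries. The lowest fold changes of the list were those of Cfp and C4b. Cfp had 29.9 and 31.6 RPKM in HF and 16.4 and 20.6 in HB, at -0.71 (SE 0.25, adjusted p = 0.0608). C4b, the C4 protein that forms the classical convertase with C2, had 316 and 362 RPKM in HF and 193 and 233 in HB, at -0.67 (SE 0.27, adjusted p = 0.0895). HB was below HF in both genes, yet neither passed the adjusted threshold. C8a and Masp2 had HB below HF as well, with log2 fold changes of -0.54 and -0.37 and adjusted p of 0.208 and 0.366. Reads of C1ra and C4b may be shared with their near copies C1rb and C4a, and those of Kng1 with Kng2, since the treatment of reads that map to several places is not given in the sources used here.

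Cfp is known as a product of myeloid cells more than of hepatocytes. The summed mRNA level of 10 neutrophil markers (RPKM) was 13.9 and 63.4 in HF and 5.10 and 6.04 in HB, with HF2 apart from the rest. Of these markers, 4 were tested in mRNA, and all 4 were lower in HB by adjusted limma p under 0.05 and a fold beyond 1. Over all tested genes this share was 12.7%. Ly6g, a defining neutrophil marker, was at 0 in every RNA-seq library. Its RPF level was 2.80 and 5.13 RPKM in HF and 0 and 38.2 in HB. The sum of 10 Kupffer cell and macrophage markers was 124 and 140.5 in HF and 176 and 154 in HB. Its markers went both ways. Clec4f, the largest term, had 72.6 and 64.4 RPKM in HF and 48.9 and 49.6 in HB. By contrast, Cd5l had 11.3 and 18.8 in HF and 41.4 and 32.6 in HB. Lyz2 had 5.19 and 11.5 in HF and 38.3 and 35.6 in HB. The sum of 10 sinusoidal endothelial markers was 184 and 165 in HF and 102 and 134 in HB. That of 10 stellate cell markers was 185 and 159 in HF and 167 and 151 in HB. Of this stellate sum, Ecm1 alone made 135 and 108 in HF and 75.6 and 91.1 in HB. The sum of 11 hepatocyte markers was 67107 and 65373 in HF and 62468 and 66319 in HB. The part of these cells in the members' differences was not tested, and in bulk liver fewer cells of a type cannot be told apart from less RNA per cell.

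In coagulation, Fgg, F2 and F13b rose in mRNA and Klkb1 fell. Fgg, the gamma chain of fibrinogen, had 479 and 444 RPKM in HF and 1199.7 and 814 in HB, at a log2 fold change of 1.10 (SE 0.30, adjusted p = 0.0262). Fga, the alpha chain, had 329 and 259.6 RPKM in HF and 813 and 406 in HB, at 0.97 (SE 0.36, adjusted p = 0.0685), and Fgb had 1009.8 and 984 RPKM in HF and 1554 and 1452 in HB, at 0.59 (SE 0.28, adjusted p = 0.148). All 3 chains were above HF in both HB libraries, and HB1 was above HB2 in each, but Fgg alone passed the adjusted threshold. F2, prothrombin, had 364 and 449 RPKM in HF and 784 and 791 in HB, at 0.96 (SE 0.28, adjusted p = 0.0315), with both HB libraries almost equal. F13b had 16.5 and 15.5 RPKM in HF and 62.5 and 27.2 in HB, at 1.31 (SE 0.36, adjusted p = 0.0257), and the value without HB1 was 0.73 (adjusted p = 0.0567). Plg, plasminogen, which becomes the clot-dissolving plasmin, had 381 and 421 RPKM in HF and 557 and 600.1 in HB, at 0.53 (SE 0.27, adjusted p = 0.17).

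**Figure D3:**
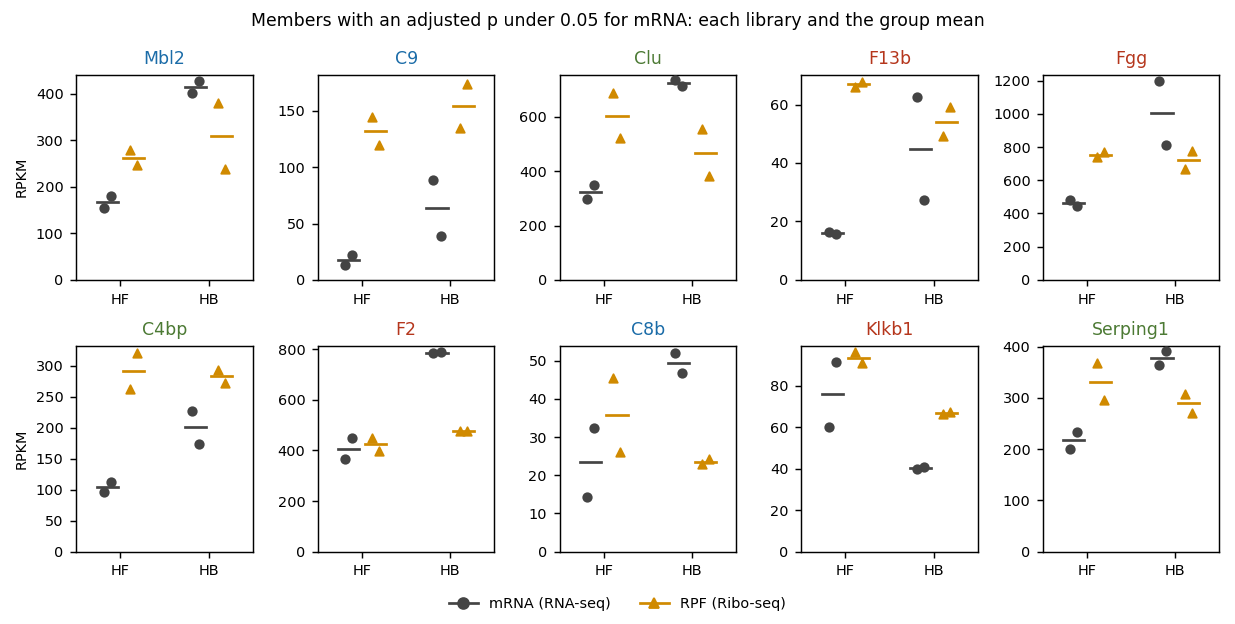
RPKM of the 10 members with an adjusted p under 0.05 for mRNA, in each library (dots for mRNA, triangles for RPF) with the group mean as a bar. The mRNA dots of HB lie above those of HF in 9 panels and below in that of Klkb1, while the RPF means of the groups lie closer together.

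The contact proteases had fold changes near 0 or below it. Klkb1, plasma prekallikrein, had 60.3 and 91.3 RPKM in HF and 39.8 and 40.7 in HB, at -0.87 (SE 0.28, adjusted p = 0.0443), and with log2 values shifted to a common median it no longer passed (adjusted p = 0.156). F11 lies beside it on chromosome 8 (chr8:45241174-45262031 against chr8:45266689-45294859, GRCm38), and had 14.5 and 21.8 RPKM in HF and 14.5 and 12.2 in HB, at -0.40 (SE 0.28, adjusted p = 0.305). Kng1, the partner of both in plasma, had 1164 and 1351 RPKM in HF and 1017 and 951 in HB, at -0.35 (SE 0.29, adjusted p = 0.384). For these 3 genes both HB libraries were below both HF libraries, for F11 by a hair between HF1 and HB1, and Klkb1 alone passed the threshold. Leaving out 1 library, the F11 value ran from -0.67 to -0.12. F12, which starts the contact route, stood at 0.11. Unlike F2, which rose, the other vitamin K dependent clotting factors F7, F9 and F10 and the cofactor F5 had fold changes between -0.017 and 0.16. Their libraries overlapped.

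Of the inhibitors, 3 that act on complement rose in mRNA. Clu, clusterin, which keeps the terminal complex out of membranes, had 297 and 349 RPKM in HF and 734 and 712 in HB, at 1.17 (SE 0.27, adjusted p = 0.0146). C4bp, the C4b-binding protein, had 95.7 and 112 RPKM in HF and 227 and 175 in HB, at 0.94 (SE 0.27, adjusted p = 0.0307). Serping1, the C1 inhibitor, which also blocks kallikrein, had 200.2 and 234 RPKM in HF and 365 and 392 in HB, at 0.80 (SE 0.26, adjusted p = 0.0484). In these 3 genes both HB libraries were above both HF libraries. Cfi, the protease that cuts C3b and C4b, had 87.5 and 124 RPKM in HF and 237 and 151 in HB, at 0.86 (SE 0.31, adjusted p = 0.0665), just short of the adjusted threshold. Vtn stood at 0.14 with overlapping groups. Of the anticoagulant and antifibrinolytic genes, Serpind1 (heparin cofactor II) and Serpinc1 (antithrombin) had HB above HF, at 0.59 and 0.50, but adjusted p of 0.159 and 0.214. Serpinf2, the plasmin inhibitor, stood at 0.045. Proc had 585 and 672 RPKM in HF and 366 and 619 in HB, at -0.40 (SE 0.32, adjusted p = 0.378), with HB1 alone below the rest and -0.020 without it. Pros1 had 15.3 and 12.2 RPKM in HF and 12 and 10.8 in HB, at -0.24 (SE 0.25, adjusted p = 0.495), and neither passed. The Pros1 value ran from -0.40 to -0.092 when 1 library was left out.

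Leaving out 1 library changed how many mRNA calls held. Of the 10 members with an adjusted p under 0.05, 2 kept it without HF1 (C9 and F13b), 5 without HF2 (C8b, C9, Clu, F13b and Mbl2), 6 without HB1 (C9, Clu, F2, Fgg, Mbl2 and Serping1) and 10 without HB2, and each of the 10 kept its direction in all 4 cases. With no filter on low genes, 0 of the 10 kept an adjusted p under 0.05.

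In footprints 0 members passed a threshold with the values as deposited. For RPF the study's limits were the same fold and an unadjusted p under 0.05, again applied to limma. By this rule 0 members were higher in HB against 1.58% of all tested genes and 0 were lower against 7.86%. Also, 0 members had an unadjusted p under 0.05 in limma, against 10% of all tested genes, and the smallest adjusted p of a member was 0.552. The voom fit on recovered reads also put 0 members past the study's limits, and its unadjusted p was under 0.05 for 1 (Kng1), against 10.9% of all genes tested. The median log2 fold change was -0.067, against -0.43 over all tested genes, and 33 of the 39 lay within 0.5 of 0. By list it was -0.058 in complement, -0.12 in coagulation and -0.060 among the inhibitors, and the scaling moved all 3. They were 0.27, 0.21 and 0.27 with log2 values shifted to a common median, and -0.93, -0.99 and -0.93 with RPKM scaled to a common sum, where 8 members were lower by the study's threshold (C8b, F5, F9, F10, F13b, Klkb1, Plg and Serpinf2), against 24.2% of all genes tested there. Genes that code for proteins held 38.8% and 34.1% of the summed RPF RPKM in HF and 29.3% and 16.3% in HB, with HB2 apart from the rest, against at least 98.2% in each RNA-seq library. The part of this share in the RPF and TE differences was not tested. Leaving out 1 library turned complement to 0.19 (without HF1) and coagulation to 0.11 (without HB1). A median 95% interval reached 0.85 to either side, so a change of less than about that size was within the spread between libraries. Both HB libraries were above both HF libraries for 5 members (F2, F7, Kng1, Cfi and Vtn), against 9.07% of all tested genes. They were below for 5 (C8b, F9, F13b, Klkb1 and Plg), against 33.2%.

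Kng1 had the highest RPF fold change, with 950.1 and 1860.4 RPKM in HF and 1968 and 2373 in HB and 0.70 (SE 0.43, adjusted p = 0.621). HF1 was far below HF2, and HB1 lay just above HF2. The value was 0.22 without HF1 and 1.18 without HF2, and voom gave 0.65 (unadjusted p = 0.0165). Fgb had 1067 and 1058 RPKM in HF and 1052 and 1893 in HB, with HB2 alone above the rest, at 0.41 (SE 0.38, adjusted p = 0.705). C8g had 173 and 216 RPKM in HF and 376 and 182 in HB, with HB1 alone above the rest, at 0.44 (SE 0.43, adjusted p = 0.714). C2 stood at 0.38 on 30, 55, 28 and 9 reads, in the order HF1, HF2, HB1 and HB2. Vtn had 529 and 538 RPKM in HF and 773 and 598 in HB, at 0.35 (SE 0.28, adjusted p = 0.663), and Cfi had 169 and 173 RPKM in HF and 178 and 268 in HB, at 0.35 (SE 0.31, adjusted p = 0.683). These are the 2 highest RPF fold changes of each list, and all 6 became negative with RPKM scaled to a common sum. Leaving out 1 library, the RPF value of Vtn ran from 0.16 to 0.54 and that of Cfi from 0.057 to 0.65.

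At the other end, F9, the protease missing in haemophilia B, had 50.2 and 52.7 RPKM in HF and 29.7 and 35 in HB, at -0.66 (SE 0.30, adjusted p = 0.552), and F11 had 19.5 and 11 RPKM in HF and 6.93 and 12.6 in HB, at -0.60 (SE 0.54, adjusted p = 0.696). Both were lower on average in HB, on 4 to 20 reads per HB library. The F11 value ran from -0.98 to -0.21 when 1 library was left out. Masp1 had 67.5 and 57.9 RPKM in HF and 60.1 and 26 in HB, with HB2 alone below the rest, at -0.64 (SE 0.48, adjusted p = 0.653). Without HB2 it was -0.056, and without HB1 it was -1.23 and past the study's threshold for RPF. Clu had 686 and 522 RPKM in HF and 554 and 381 in HB, with overlapping groups, at -0.38 (SE 0.33, adjusted p = 0.679). Leaving out 1 library, the Clu value ran from -0.65 to -0.11. Pros1 stood at -0.25. Cfp had 12.6 and 6.94 RPKM in HF and 7.13 and 0 in HB and a fitted value of -1.87, which is no bound. With 3 reads as the floor, HB2 allows up to 12.9 RPKM of Cfp, more than the HF mean of 9.77, so a difference was not detectable. Floors and reads cover counting error only.

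For the 9 members with higher mRNA, the RPF log2 fold changes were 0.20 for Mbl2, 0.22 for C9, 0.18 for F2, -0.036 for C4bp, -0.067 for Fgg, -0.19 for Serping1, -0.31 for F13b, -0.38 for Clu and -0.53 for C8b. Mbl2 had 279 and 246 RPKM in HF and 381 and 239 in HB and C9 145 and 119.7 RPKM in HF and 135 and 174 in HB. In both genes HB and HF footprints overlapped. The test of whether RPF and mRNA changed unequally is that of TE.

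**Figure D4:**
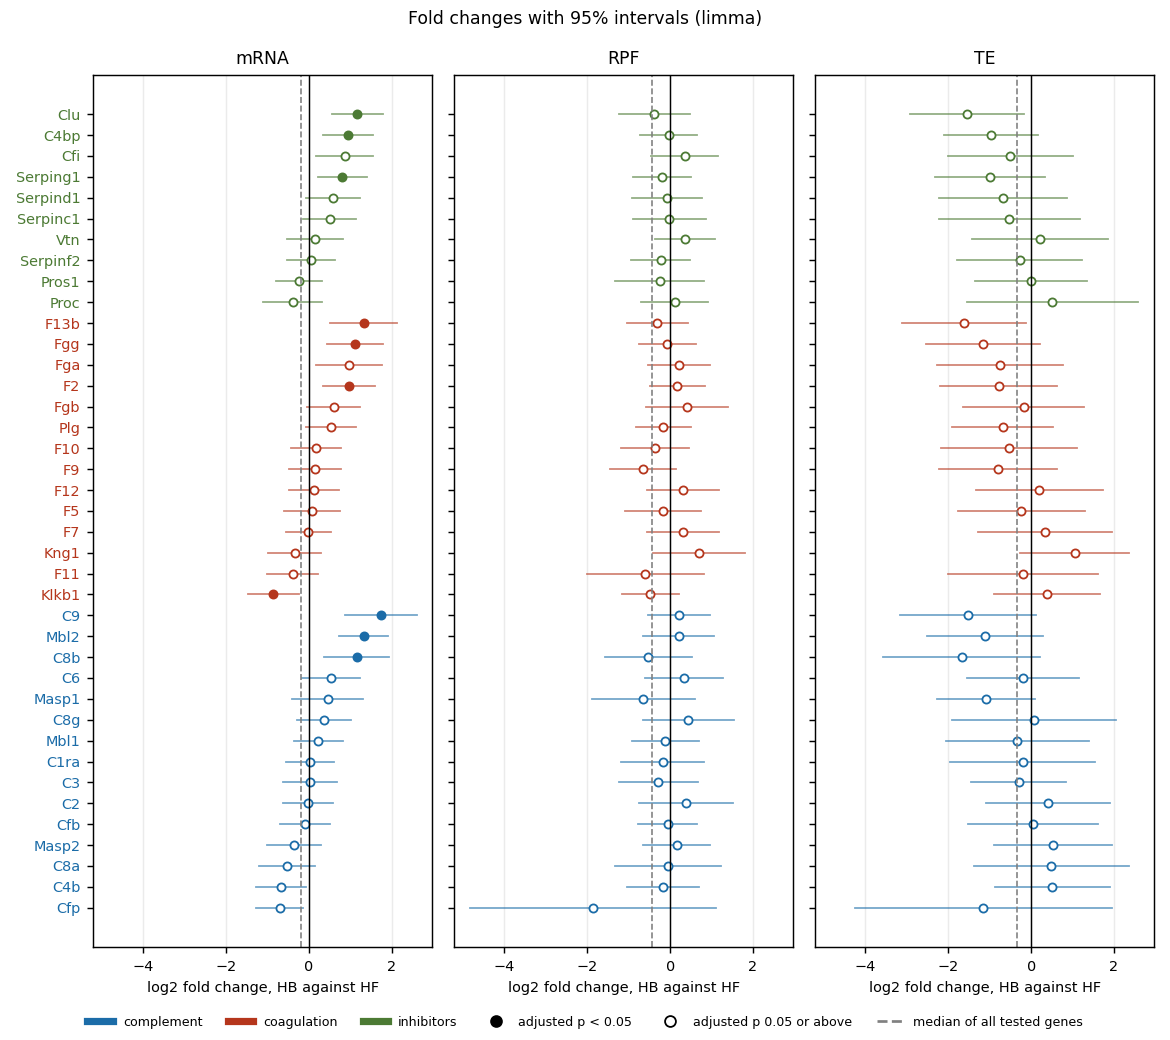
log2 fold changes of HB against HF with 95% intervals for mRNA, RPF and TE (limma), ordered by the mRNA change within each list, with filled points for an adjusted p under 0.05 and a dashed line at the median of all tested genes. In mRNA 10 points are filled, in RPF and TE none is, and the TE intervals are the widest.

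For TE, 0 members were higher at the study's threshold, which for TE was a log2 fold change past 2 and an unadjusted p under 0.05, against 1.49% of all tested genes, and 0 were lower against 4.6%. An unadjusted limma p under 0.05 was found for 2 members, Clu and F13b, against 12.2% of all tested genes, and the smallest adjusted p of a member was 0.379. An interaction term fitted over both kinds of library gave an unadjusted p under 0.05 for 10 members (C8b, C9, Mbl2, F2, F13b, Fgg, Plg, C4bp, Clu and Serping1), all lower in HB, against 15.8% of all tested genes, and with the replicate numbers of one assay crossed it was 4 (C8b, C9, F13b and Clu), against 12.9% of all. By adjusted p, 0 members passed in either fit. On the log scale the TE change is the RPF change minus the mRNA change, so it is no separate measurement. The median was -0.30 for the members and -0.35 over 9455 tested genes, with 12 members above 0 and 27 below. It was -0.20 in complement, -0.38 in coagulation and -0.51 among the inhibitors, below 0 under each rescaling. Leaving out 1 library gave -0.50 (without HB1) to 0.088 (without HB2) in complement, -0.70 (without HB2) to -0.044 (without HB1) in coagulation and -0.71 (without HF2) to -0.19 (without HB1) among the inhibitors. TE of HB was below that of HF in both libraries for 16 members, against 31.7% of all tested genes, and above it for 3 (F7, Klkb1 and Kng1), against 14% of them.

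Clu had TE values of 2.31 and 1.50 in HF and 0.755 and 0.536 in HB, at -1.55 (SE 0.57, adjusted p = 0.379), and F13b 4.0 and 4.35 in HF and 0.786 and 2.18 in HB, at -1.62 (SE 0.61, adjusted p = 0.39). HB was below HF in both, and for F13b the HB libraries were far apart, with -0.90 without HB1 and -2.34 without HB2. C8b had 3.15 and 0.803 in HF and 0.441 and 0.518 in HB, at -1.68 (SE 0.78, adjusted p = 0.449), with HF1 far above the rest, and the value was -0.73 without HF1 and -2.63 without HF2. C9 had 11 and 5.50 in HF and 1.53 and 4.43 in HB, at -1.52 (SE 0.67, adjusted p = 0.433), which became -0.76 without HB1 and -2.27 without HB2. Fgg had 1.54 and 1.74 in HF and 0.556 and 0.958 in HB, at -1.17 (SE 0.57, adjusted p = 0.467). Among the inhibitors Serping1 came after Clu, with 1.84 and 1.27 in HF and 0.843 and 0.692 in HB and -0.99 (SE 0.55, adjusted p = 0.505). The highest TE change was that of Kng1, with 0.816 and 1.38 in HF and 1.94 and 2.50 in HB, at 1.05 (SE 0.54, adjusted p = 0.482). It ran from 0.67 to 1.43 when 1 library was left out. Klkb1 stood at 0.39, Masp2 at 0.53, C4b at 0.51, Proc at 0.51 and Vtn at 0.21. Those 5 values had adjusted p of 0.735 or more. Leaving out 1 library, Klkb1 ran from 0.052 to 0.73, C4b from 0.052 to 0.96 and Proc from 0.040 to 0.98.

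Members that form one protein can be compared as ratios within a library. Fibrinogen takes its alpha, beta and gamma chains in equal numbers. In mRNA the ratio of Fgb to Fga was 3.07 and 3.79 in HF and 1.91 and 3.58 in HB, and that of Fgg to Fga 1.46 and 1.71 in HF and 1.48 and 2.0 in HB. In RPF the same ratios were 1.52 and 1.69 in HF and 1.58 and 2.14 in HB for Fgb and 1.06 and 1.23 in HF and 1.00 and 0.880 in HB for Fgg. The RPF ratios to Fga were nearer to 1 than the mRNA ratios in each of the 4 libraries. The lengths behind the RPF values held unequal shares of untranslated bases. They were 3360 bases for Fga against a longest coding sequence of 2370, 1705 against 1446 for Fgb and 1890 against 1332 for Fgg. How near an RPF ratio lies to 1 depends in part on these lengths. The ratio of Fgb to Fgg was 2.11 and 2.22 in HF and 1.30 and 1.79 in HB in mRNA and 1.44 and 1.37 in HF and 1.58 and 2.43 in HB in RPF, so its RPF value was nearer to 1 than the mRNA value in HF and farther from 1 in HB. C8 holds 1 alpha, beta and gamma chain each. The mRNA ratio of C8a to C8b, its neighbour on chromosome 4, was 6.28 and 4.83 in HF and 1.56 and 1.75 in HB, and the groups did not overlap. The RPF ratio of C8a to C8b was 4.02 and 3.20 in HF and 4.03 and 6.34 in HB, on 7 to 56 C8b reads per library, with HB1 level with HF1. The mRNA ratio of C8g to C8b was 33.9 and 18 in HF and 11.5 and 16.8 in HB, and in RPF it was 3.80 and 8.31 in HF and 16.5 and 7.54 in HB, with values scattered in both groups. The C8g lengths differ between assays, so its mRNA and RPF ratios are not on one scale. Untranslated shares differ here too, with 3541 bases for C8a against a longest coding sequence of 1764, and 2041 against 1770 for C8b.

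Further genes of both systems were taken from a fixed list. Of 30 more complement genes, 20 were tested in mRNA, and at the study's threshold 0 were higher (2.3% of all tested genes) and 1 was lower (6.56% of all), Cd59a, a membrane protein that blocks the pore. Cd59a had 88.9 and 96.1 RPKM in HF and 44.9 and 34.8 in HB, at -1.20 (SE 0.26, adjusted p = 0.0109). With an adjusted p under 0.05 and a fold beyond 1, 3 were higher, against 5.01% of all tested genes. They were C1qc, a chain of the recognition protein C1q made by macrophages (1.15, SE 0.26, adjusted p = 0.0124), and C1rb (1.53, SE 0.39, adjusted p = 0.0197). The third was Cfd, the protease that activates factor B (1.00, SE 0.25, adjusted p = 0.0187). Of 10 Kupffer cell and macrophage markers, 2 were higher in mRNA by this rule and 0 lower. The part of these cells in the C1qc value was not tested. Of 31 more genes of coagulation and fibrinolysis, 18 were tested in mRNA and 0 passed the study's threshold, and by adjusted p with the fold 1 was higher, Cpb2, which protects fibrin from plasmin (1.03, SE 0.29, adjusted p = 0.0279). The median mRNA fold change was 0.33 in the former list and 0.36 in the latter, and the genes too low to be tested are not in these counts.

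In RPF, 22 and 20 genes of these lists were tested, 0 were higher and 3 were lower by the study's threshold, against 7.86% of all tested genes. F2r, a thrombin receptor of endothelium, had 26.3 and 17.3 RPKM in HF and 5.83 and 10.6 in HB on 34, 61, 5 and 5 reads. Beside it, the RPF sum of 10 sinusoidal endothelial markers (RPKM) was 211 and 174 in HF and 168 and 111 in HB, with 3 of 10 called lower. The mRNA of F2r had 2.39 and 3.18 RPKM in HF and 5.59 and 4.63 in HB, at 0.69 (SE 0.25, adjusted p = 0.0688), with both HB libraries above HF although it did not pass the adjusted threshold, while the mRNA sum of the endothelial markers was lower in HB. The part of these cells in the F2r value was not tested. C7 of the membrane attack complex had 1, 9, 0 and 0 reads. For C7, 3 reads equal 8.62 and 15.6 RPKM in HB1 and HB2, above its HF values of 1.90 and 6.29, so a fall was not detectable at this depth. In TE, 19 and 18 genes were tested and 3 were lower, against 4.6% of all tested genes, among them F2r (-2.02, from both changes) and Colec11, a collectin of the lectin route with 14, 27, 4 and 0 RPF reads. The TE change of F2r had an adjusted p of 0.346 (limma).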

How the data were processed

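For both assays the authors aligned reads to the mouse genome mm10 (FANSe2) and deposited 1 table of RPKM for each library. They used edgeR, which was not used here. Library totals, gene lengths and whole reads were recovered from the steps between RPKM values, and 99.0% (RNA-seq) and 97.3% (Ribo-seq) of values above 0 were whole within 0.005 reads. Genes whose RPKM averaged 1 or more in an assay were fitted on log2(RPKM + 1) with limma 3.58.1 (R 4.3.3, variance trend, two-sided, group as the only factor), which understates changes of low genes. TE was log2((RPF + 1)/(mRNA + 1)) of libraries with the same group and number. P-values were adjusted over all tested genes (Benjamini-Hochberg). An exact permutation test of 2 against 2 libraries cannot go below 0.333. Steps were tested on simulated data. Described singly are members called, the 2 highest and 2 lowest fold changes per list and measure, the 3 highest and lowest levels, and the chains of fibrinogen and C8. Members, lists and rules were chosen with earlier results of these data known. Alternatives were a pseudocount of 0.1, other filters, scalings and thresholds, no trend, a replicate block, each library left out, voom on recovered reads, a TE interaction term and crossed TE numbers. The RNA-seq length for RPF was added after seeing the data. The result of 1 further gene is not reported here.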

Additional observations from a re-analysis of the deposited data

How the results depend on the processing

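Deviations of HF and HB libraries with equal replicate numbers correlated at -0.104 in mRNA and -0.0138 in RPF. Between mRNA and RPF, which TE pairs by number, the correlation was -0.00239 in HF and -0.0774 in HB. With 2 libraries per group, these values cannot show whether equal numbers mark the same animal or preparation. The count of members higher in mRNA, 1 as reported, was 6 with the replicate block (4.66% of all tested genes), 6 by adjusted p (5.01%), 4 with a common median (5.05%), 2 with a common sum (2.14%), 2 with no variance trend (2.49%), 0 with no filter (0.459%) and 0 to 7 leaving out 1 library (0 without HF1, 1.55%; 2 without HF2, 2.26%; 2 without HB1, 2.26%; 7 without HB2, 4.70%). A common median moved the median of all tested genes from -0.19 to 0.084 in mRNA, with 540 genes called higher and 291 lower in place of 246 and 701, and the members' median from 0.16 to 0.44. Leaving out 1 library gave members' mRNA medians of 0.16 to 0.28. In RPF a common sum, a common protein-coding sum and a common median moved the median of all genes from -0.43 to -1.19, -0.55 and -0.10, and the members' median from -0.067 to -0.94, -0.21 and 0.26, and voom gave -0.041. The common sum called 8 members lower in RPF (24.2% of all tested genes) and 4 in TE (13.9%; members' TE median -1.13), and leaving out 1 library gave 0 to 2 in both (2 in RPF without HB1, 23.3% of all, and in TE 1 without HF2, 1.89%, 1 without HB1, 13.4%, and 2 without HB2, 7.65%) and members' medians of -0.17 to 0.057 in RPF and -0.62 to -0.13 in TE. With a common sum the sign turned in RPF for C2 (-0.46), C8g (-0.43), Cfi (-0.52), Fgb (-0.47), Kng1 (-0.17) and Vtn (-0.52), and in TE for C4b (-0.32), Klkb1 (-0.43), Masp2 (-0.30), Proc (-0.31) and Vtn (-0.62). With a common median Pros1 became 0.028 in mRNA and 0.072 in RPF. Leaving out 1 library, the RPF value of C2 ran from -0.0014 (without HB1) to 0.75, of C8g from -0.083 (without HB1) to 0.96, of Fgb from -0.015 (without HB2) to 0.83 and of Pros1 from -0.56 to 0.058 (without HB1), and the TE value of Masp2 from -0.075 (without HF2) to 1.13 and of Vtn from -0.12 (without HB1) to 0.53. By single library, the median HF RPF level was 83.1 RPKM for complement in HF2 and 216 for the inhibitors in HF1, and median HF TE was 1.29 for coagulation in HF1 and 1.21 for the inhibitors in HF2. The cause of these shifts was not tested beyond the scaling or library that defines each. Of the recomputed single-gene values, 475 kept direction and side of the threshold, 19 turned direction and the others crossed the threshold. Summary values were judged by a set tolerance instead. It was a fixed factor for counts and the SD between the libraries of 1 group for medians. By this rule 116 summary values stayed close to the main value and 31 moved. Counting error is widest in HB2, at a median of 52 RPF reads per member, and its part in the spread was not tested.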
